A study of Homo sapiens with 16 samples.

Results

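The peaks on the long arm of chromosome 13 between 67.24 and 94.00 Mb (hg38) were examined in the 9 peak lists of a G4 immunoprecipitation study. The cells were HEK293T, an established human embryonic kidney line. These limits are not the ends of a run of peaks, which went on past both of them in most lists. Members of the stretch are all peaks with their midpoint in these 26.76 Mb, 2917 of the 40118 peaks of the 9 lists. The stretch was chosen by the number and the fold of peaks along the chromosome in these same lists, so counts, densities and folds are given as a description and without a test. It was set beside the next 20 Mb, from 94.00 to 114.00 Mb (the distal segment), which held 56 peaks in all.

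All immunoprecipitations used the 1H6 antibody against G4s. In AbC G4-ChIP the antibody was bound in fixed, permeabilised cells before sonication. It was applied to 2 stable lines, CT, transduced with a lentiviral non-targeting shRNA, and KD, transduced with an shRNA that targets CGGBP1, a CGG-repeat binding protein. Each was processed in 3 ways, which pair the lists: without any plasmid (CTnuc and KDnuc), with antibody-bound control and carrier plasmid DNA added to the lysate of untransfected cells (CTut and KDut), and with both plasmids transfected into the cells beforehand (CTtr and KDtr). G4-ChIP is the conventional protocol on chromatin. G4 DNA-IPnat and G4 DNA-IPdenat were made in vitro from sonicated genomic DNA of untransduced cells, without denaturation or after heat denaturation and snap-chilling. Each list is 1 library pooled from 4 replicates, so no list has an error over replicates. CTnuc and KDnuc share 1 pooled input and were read by an Ion Torrent S5, and the other 7 libraries by a MinION. The 7 inputs and the read density along the chromosome were not analysed here, and the CGGBP1 level of the KD line cannot be read from peak lists.

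G4s are DNA structures in which guanines of 4 runs, on the same or on different strands, pair into planar tetrads that stack. Hydrogen bonds and potassium ions hold the tetrads together. The canonical signature counted here has 4 GGG runs on one strand, separated by loops of 1 to 7 bases, so that the opposite strand carries runs of C. They are best known at GC-rich promoters and at telomeres. The stretch is the opposite kind of DNA: it is AT-rich (35.8% GC against 41.1% in the distal segment), poor in GGG and CCC triplets (17.4 against 26.1 per kb) and mostly outside genes. Protein-coding genes made up 19.7% of it. They include KLHL1, which encodes an actin-binding relative of the Kelch proteins that is expressed in neurons, DACH1, a transcription factor of the retinal determination network, and the long neuronal and developmental genes GPC5 and GPC6.

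The first set is shown because it holds a sequence that many lists had in common and the sequence from both genes described in most detail. Each is read on the plus strand of hg38 and is the central 300 bases of a region, with every GGG and CCC triplet in capitals. The longest of the regions covered by 7 lists is shown at chr13:67413286-67413585, outside annotated genes. The regions of KLHL1 and DACH1 covered by the most lists are shown at chr13:69741569-69741868 and chr13:71621628-71621927, both intronic. The peak with the highest fold of all 2917, from G4 DNA-IPdenat, is shown at chr13:87230062-87230361, outside annotated genes.
Region of 7 lists: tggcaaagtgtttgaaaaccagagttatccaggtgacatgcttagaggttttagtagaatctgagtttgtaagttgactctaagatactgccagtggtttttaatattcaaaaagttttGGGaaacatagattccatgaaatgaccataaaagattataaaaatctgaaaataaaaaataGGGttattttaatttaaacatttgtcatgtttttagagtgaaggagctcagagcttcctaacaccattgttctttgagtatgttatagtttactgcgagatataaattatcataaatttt
KLHL1 intron: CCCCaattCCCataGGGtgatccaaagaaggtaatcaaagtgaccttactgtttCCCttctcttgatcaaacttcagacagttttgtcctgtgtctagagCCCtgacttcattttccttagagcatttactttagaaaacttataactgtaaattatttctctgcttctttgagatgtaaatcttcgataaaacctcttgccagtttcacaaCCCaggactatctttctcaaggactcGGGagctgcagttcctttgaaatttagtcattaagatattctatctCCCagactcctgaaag
DACH1 intron: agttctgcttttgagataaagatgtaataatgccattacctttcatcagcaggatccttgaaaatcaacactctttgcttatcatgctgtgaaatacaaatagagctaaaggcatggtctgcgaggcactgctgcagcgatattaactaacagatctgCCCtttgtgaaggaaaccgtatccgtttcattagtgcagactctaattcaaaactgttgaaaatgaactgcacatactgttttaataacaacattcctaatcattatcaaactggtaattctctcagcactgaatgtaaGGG
G4 DNA-IPdenat peak of highest fold: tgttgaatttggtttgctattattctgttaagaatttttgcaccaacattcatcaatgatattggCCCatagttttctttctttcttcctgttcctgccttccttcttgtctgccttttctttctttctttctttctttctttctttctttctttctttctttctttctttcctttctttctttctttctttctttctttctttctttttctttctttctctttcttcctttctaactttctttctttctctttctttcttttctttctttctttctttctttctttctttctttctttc

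The 4 sequences differed in the triplets that G4s are built from. The region of 7 lists had 2 GGG and 0 CCC triplets in its 300 bases and a GC content of 30%, and the DACH1 intron had 1 GGG and 1 CCC triplet at 37.7%. The KLHL1 intron was the richest of the 4, with 2 GGG and 7 CCC triplets and a GC content of 39.0%. The G4 DNA-IPdenat peak held a tandem run of 14 copies of CTTT and 66 copies of it over its 852 bp, and 1 CCC triplet in the bases shown.

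The second set is shown because it gives 3 of the 5 canonical signatures that lay inside members of 5 lists each, the most for any signature. The capitals mark the runs of G on the strand that carries the signature. They lie at chr13:67480218-67480239 on the minus strand, chr13:67679547-67679568 on the minus strand and chr13:68239447-68239466 on the plus strand. The middle one is in an intron of the non-coding gene ENSG00000287876 and the others are outside annotated genes.
Signature A: GGGatGGGaggatcGGGGaGGG
Signature B: GGGGaGGGGaaaagaGGGtGGG
Signature C: GGGaggccGGGGGGGcaGGG

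Of the 9 lists, 8 had members in the stretch. The numbers were 220 in CTnuc, 666 in KDnuc, 285 in CTut, 646 in KDut, 252 in CTtr, 291 in KDtr, 290 in G4-ChIP and 267 for G4 DNA-IPdenat. KDnuc and KDut thus held more than 2 times as many as any other list. G4 DNA-IPnat had 0 of its 226 peaks there, which allows a share of up to 1.33% by a limit of 3 peaks (exact two-sided 95% limit 1.62%). As a share of each list, the stretch held 5.80% of CTnuc (exact 95% interval 5.07 to 6.59), 8.59% of KDnuc (7.98 to 9.24), 8.15% of CTut (7.27 to 9.11), 22.1% of KDut (20.6 to 23.6), 10.6% of CTtr (9.43 to 12.0), 12.2% of KDtr (10.9 to 13.6), 19.9% of G4-ChIP (17.9 to 22.1) and 1.70% of G4 DNA-IPdenat (1.5 to 1.91). These intervals cover counting error only. KDut and G4-ChIP therefore placed about 1 peak in 5 in the stretch, and G4 DNA-IPdenat fewer than 1 in 50.

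Counting all peaks, weak ones included, the stretch was denser than the genome outside chromosome 13 in every list with members, but least so for purified DNA. The ratio of peaks per Mb was 7.68 for CTnuc, 11.5 for KDnuc, 11.2 for CTut, 36.9 for KDut, 17.1 for CTtr, 20.4 for KDtr and 39.6 for G4-ChIP. For G4 DNA-IPdenat it was 1.85, from 9.98 peaks per Mb in the stretch and 5.39 elsewhere. This ratio was not computed for strong peaks alone, so a denser stretch is not shown for them. Of the peaks with a -log10 q of at least 4, the stretch held only 0.307% in CTnuc and 0.216% in CTtr. The peaks of the nuc lists are numbered, and many numbers are absent from the files: within the stretch, 332 of 552 consecutive numbers of CTnuc (60.1%) and 1284 of 1950 of KDnuc (65.8%) have no peak. With the absent numbers counted, the stretch held 5.13% of CTnuc and 8.76% of KDnuc. The numbering of the other lists has no gaps.

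The distal segment was close to empty. CTnuc had 0 peaks there, so its density in the stretch was at least 54.8-fold higher when the segment is given a floor of 3 peaks. The other counts were 19 in KDnuc, 2 in CTut, 10 in KDut, 4 in CTtr, 3 in KDtr and 3 in G4-ChIP. For the DNA-IPs, the native library had 0 and the denatured one 15. Of these, KDnuc fell from 24.9 to 0.95 peaks per Mb (26.2-fold) and G4 DNA-IPdenat from 9.98 to 0.75 (13.3-fold). Most of the distal peaks were the tail of the stretch itself: 39 of the 41 peaks of the 7 chromatin lists ended at or before base 94791198 (94.79 Mb), after which none of these lists had a peak for at least 500 kb.

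The density did not fall evenly but in steps. In the first window, from 67.24 to 68 Mb, CTnuc had 107 peaks, KDnuc 151, CTut 66, KDut 47, CTtr 67, KDtr 83 and G4-ChIP 50. In the window from 69 to 70 Mb they had 4, 27, 18, 39, 10, 17 and 15, in the same order. The summed counts of these 7 lists in bins of 50 kb changed most at 68.45 Mb. This position was found after the values were seen, and it was used with 73 and 80 Mb to divide the stretch into 4 blocks.

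The first block, 1.21 Mb long, was the end of a dense run that began before the stretch. In the 1 Mb before it the lists had 158 peaks in CTnuc, 213 in KDnuc, 88 in CTut, 48 in KDut, 73 in CTtr, 109 in KDtr and 68 in G4-ChIP. From the first to the second block, which ends at 73 Mb, the density fell 17.7-fold in CTnuc, 7.28-fold in KDnuc, 3.26-fold in CTut, 1.31-fold in KDut, 7.19-fold in CTtr, 6.88-fold in KDtr and 4.64-fold in G4-ChIP. Peaks in the first block were long in KDut, with a median of 9756 bp, and also in CTtr, with 5224 bp. By the bases covered, KDut went from 80.7% of the first block to 10.4% of the second, CTut from 61.4% to 6.04% and CTtr from 71.4% to 1.97%. G4 DNA-IPdenat fell 1.34-fold by density, from 13.2 peaks per Mb in the first block to 9.89 in the second, about as much as KDut. By the bases covered it went from 3.76% to 2.30%, a far smaller fall than in KDut.

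Beyond 73 Mb the lists parted. CTnuc went to 2.71 peaks per Mb in the third block (73 to 80 Mb) and to a single peak in the fourth (80 to 94.00 Mb), at chr13:91266678-91267338. CTut went from 5.14 to 0.714 peaks per Mb. CTtr and KDtr had 3.64 and 3.14 peaks per Mb in the fourth block. KDnuc stayed at 23.7 in the third and 9.93 in the fourth, and KDut at 20.3 and 16.1. G4-ChIP was lower in the third block (4.86 peaks per Mb) than in the fourth (8.07), so its density did not fall all the way along the arm. G4 DNA-IPdenat had 13.3 peaks per Mb in the third block, much the same as in the first, with its fullest window (22 peaks) from 79 to 80 Mb.

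**Figure D1:**
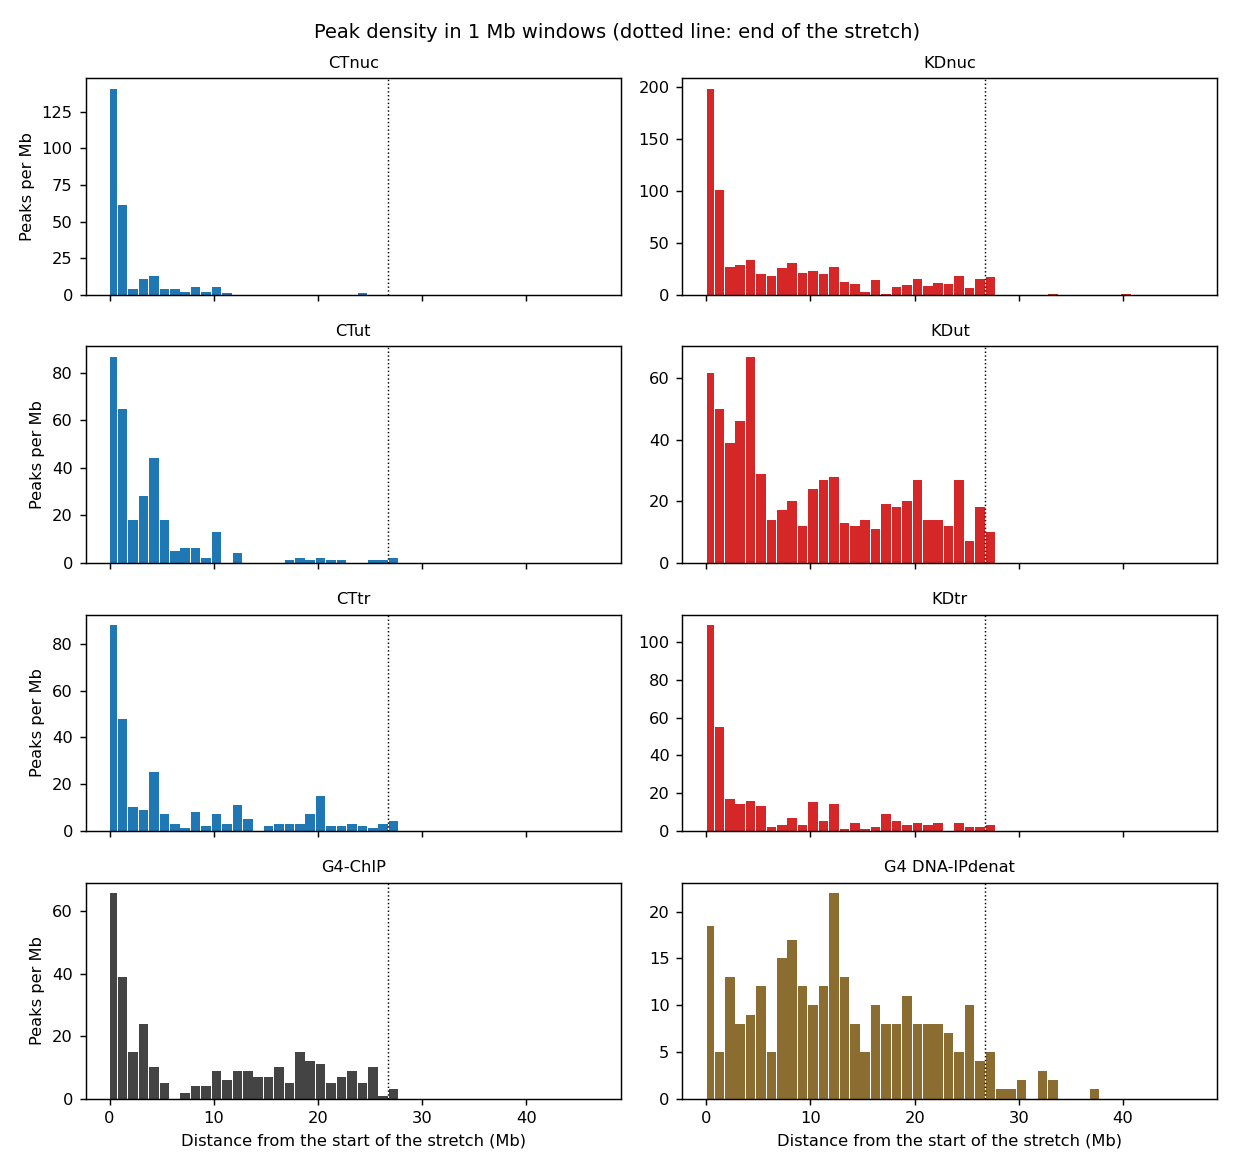
Peaks per Mb (vertical axes, each list on its own scale) in 1 Mb windows against the distance in Mb from 67.24 Mb (horizontal axes), for the 8 lists with members. The dotted line is the end of the stretch at 94.00 Mb: the bars are tallest at the left in all lists but KDut and G4 DNA-IPdenat, and almost none stand 2 Mb or more to the right of the line.

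A second rise stood between 71 and 72 Mb, where DACH1 lies. By the number of peaks, this window was the fullest of the whole stretch in KDut (67 peaks) and the fullest beyond 69 Mb in CTnuc (13), KDnuc (33), CTut (44) and CTtr (25). By the bases covered it was not the fullest in KDut, which covered 18.8% of it and 82.8% of the first window. In the nuc lists the lead was small: CTnuc had 11 peaks from 70 to 71 Mb and KDnuc 31 from 75 to 76 Mb. It was not the fullest beyond 69 Mb in KDtr (16 peaks, against 17 from 69 to 70 Mb), in G4-ChIP (10, against 24 from 70 to 71 Mb) or in G4 DNA-IPdenat (9). The 5 lists with this rise are all AbC G4-ChIP lists, of both CT and KD.

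Over the 27 windows, Spearman's rho between density and position was -0.837 in CTnuc, -0.773 in KDnuc, -0.750 in CTut, -0.575 in KDut, -0.557 in CTtr and -0.637 in KDtr. It was -0.228 in G4-ChIP and, for denatured DNA, -0.430. Neighbouring windows share broad features of the DNA and all windows of a list share 1 library, so rho is a description. Over the 25 windows from 69 Mb on it was still between -0.440 and -0.791 in the 6 AbC G4-ChIP lists and -0.506 in G4 DNA-IPdenat, but -0.0255 in G4-ChIP. G4-ChIP was also the list whose density went most closely with base composition over these windows, with a rho of -0.63 between density and GC content, against -0.163 to 0.335 in the other lists. The boundary that best divided the 1 Mb windows of the stretch into 2 constant densities lay at 69 Mb in CTnuc, KDnuc, CTtr, KDtr and G4-ChIP, at 72 Mb in KDut, at 73 Mb in CTut and at 81 Mb in G4 DNA-IPdenat. With the distal windows included it moved to 95 Mb in KDut and G4 DNA-IPdenat and to 93 Mb in G4-ChIP, and stayed in the other 5 lists.

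The far end was abrupt and close to the same place in the lists that reached it. The last peak of the run lay at chr13:94788222-94789177 in KDnuc, chr13:94676435-94679504 in CTut, chr13:94789922-94791198 in KDut, chr13:94682890-94683499 in CTtr, chr13:94726969-94728420 in KDtr and chr13:94713341-94714052 in G4-ChIP. All 6 lay in the window from 94 to 95 Mb, past the end set by the rule. Of the 7 chromatin lists, only KDnuc had peaks further out, 2 of them. G4 DNA-IPdenat also thinned out here, with 11 peaks in the 19.2 Mb beyond 94.79 Mb (0.573 per Mb) against 8.07 per Mb in the fourth block. Just inside the rule's end, the last members had folds of 4.76 in KDnuc, 3.58 in KDut, 3.29 in CTut, 3.38 in CTtr, 3.96 in KDtr and 4.48 in G4-ChIP. Just outside it, the next peaks had 4.12, 3.25, 3.20, 3.23, 3.76 and 4.45, in the same order.

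The fold, the enrichment that MACS2 gives for each peak, changed far less than the density. In the AbC G4-ChIP lists and G4 DNA-IPdenat it is taken over 1 background value for the whole genome. The input signal at each place was therefore not divided out in these lists. Its median in the stretch was 4.61 in CTnuc, 4.39 in KDnuc, 3.33 in CTut, 3.41 in KDut, 3.42 in CTtr, 3.91 in KDtr and 4.5 in G4-ChIP, and 4.87 after denaturation in G4 DNA-IPdenat. In the 7 chromatin lists these medians were at most 1.08 times the lowest fold of the whole list, which is 4.33 in CTnuc, 4.11 in KDnuc, 3.08 in CTut, 3.19 in KDut, 3.21 in CTtr, 3.64 in KDtr and 4.45 in G4-ChIP. Members within 10% of that lowest fold made up 72.7% of CTnuc, 65.5% of KDnuc, 58.2% of CTut, 63.0% of KDut, 67.5% of CTtr, 60.8% of KDtr and 84.8% of G4-ChIP. The same shares over the whole lists were 26.4%, 39.8%, 22.4%, 33.0%, 28.4%, 32.5% and 72.0%. Members of the chromatin lists were thus mostly among the weakest peaks that their list holds. G4 DNA-IPdenat was the reverse, with 16.1% of its members this close to its lowest fold and 25.8% of the list.

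Few members passed a stricter limit. With a -log10 q of at least 4, 6 members were left in CTnuc, 30 in KDnuc, 60 in CTut, 43 in KDut, 2 in CTtr, 61 in KDtr, 23 in G4-ChIP and 86 of the G4 DNA-IPdenat members, 311 in all. This was 2.73% of the CTnuc members against 51.5% of the CTnuc list, and 32.2% of the G4 DNA-IPdenat members against 26.5% of that list. Among the peaks past this limit the stretch held 0.307% of CTnuc, 1.12% of KDnuc, 2.55% of CTut, 3.49% of KDut, 0.216% of CTtr, 4.85% of KDtr, 9.5% of G4-ChIP and 2.07% of G4 DNA-IPdenat. The 7 chromatin lists thus placed a smaller part of their strong peaks in the stretch than of all their peaks.

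The median fold was also lower in the second block than in the first, by 0.0764 in CTnuc, 0.267 in KDnuc, 0.220 in CTut, 0.300 in KDut, 0.245 in CTtr, 0.199 in KDtr, 0.0712 in G4-ChIP and by 0.029 in G4 DNA-IPdenat. In G4 DNA-IPdenat the median of the third block, 5.09, was above the 4.90 of the first, so no step down in fold is shown there. Beyond 68.45 Mb the fold changed little with position. Spearman's rho between fold and position was between -0.538 and -0.118 over all members of a list, and between -0.174 and -0.0516 over those beyond the step. In G4-ChIP the median of the third and of the fourth block equalled the lowest fold of the list, 4.45, so no further fall could show there.

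**Figure D2:**
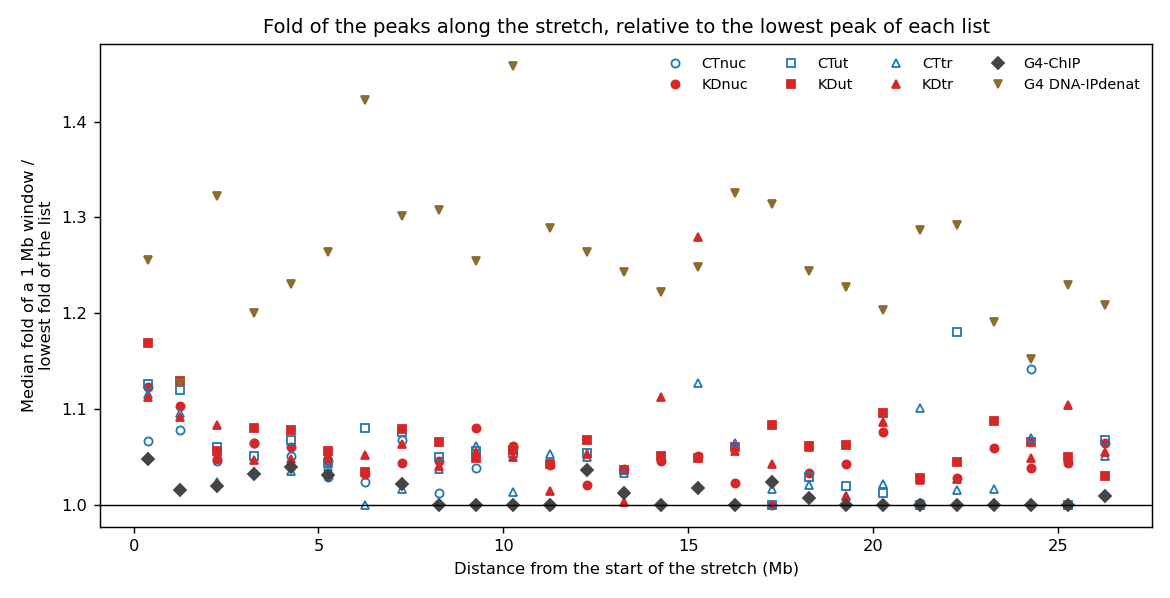
Median fold of the peaks in each 1 Mb window divided by the lowest fold of the list (vertical axis, no unit) against the distance in Mb from 67.24 Mb (horizontal axis), 1 symbol per list and window that holds a peak. The chromatin lists mostly lie between 1 and 1.1, higher in the first 2 windows, and G4 DNA-IPdenat lies above them almost throughout.

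The strongest single members stood at different places. Those of KDnuc (fold 6.25, chr13:67927098-67927881), CTut (4.18, chr13:67307694-67310589), KDut (4.56, chr13:67471534-67474313), CTtr (4.26, chr13:67701210-67703640) and KDtr (5.29, chr13:67767206-67768003) were all in the first block. Peaks of 4 or 5 lists lay at each of these 5 positions. That of CTnuc (5.59) was at chr13:70513312-70514029, and that of G4-ChIP (6.12) at chr13:72148185-72148500, where no other list had a peak. The highest fold in G4 DNA-IPdenat was 11.3, at the CTTT run at chr13:87229786-87230637 shown above, also with no peak of another list.

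The next question was whether the knockdown of CGGBP1 was accompanied by a change in the stretch. The share of the list in the stretch was higher in KD than in CT in 3 of 3 pairs, by 2.79 percentage points in nuc, 13.9 in ut and 1.53 in tr. The mean was 8.20% ± 2.43 in CT and 14.3% ± 6.98 in KD (SD, n = 3 lists each), and the mean difference 6.08 percentage points ± 6.82 (SD over 3 pairs). The mean difference was smaller than its SD over the pairs, and it rested mostly on ut: without that pair it was 2.16 percentage points. The numbers of peaks had a part in the choice of the stretch, and an exact sign-flip permutation test over 3 pairs cannot go below a two-sided p of 0.25, so these differences are given without a p.

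By the bases covered, the pairs did not move one way. CTnuc covered 0.867% of the stretch and KDnuc 2.70%, CTut 4.12% and KDut 7.96%, but CTtr 4.00% and KDtr 2.94%. Over all members, the median length was lower in KD in 3 of 3 pairs. It was 922 and 835 bp in nuc, 2258 and 1872 bp in ut, and 1762 and 1588 bp in tr. The exact sign-flip permutation p was 0.25, the smallest possible for 3 pairs. Within the blocks KD was not shorter throughout. From 67.24 to 68.45 Mb the medians were 981 and 1164 bp in nuc, 4689 and 9756 in ut, and 5224 and 2906 in tr. From 68.45 to 73 Mb they were 732 and 782, 1829 and 2017, and 1451 and 1169, in the same order. From 73 to 80 Mb KD was shorter in ut only, and from 80 to 94.00 Mb in no pair. The part of the members' positions in the lower KD medians was not tested.

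The ratio of KD to CT peaks was highest towards the far end of the stretch in the nuc and ut pairs. In the first block CT had 165 peaks and KD 238 in nuc, 111 and 72 in ut, and 109 and 128 in tr. Peaks of CT and KD covered 15.4% and 28.6% of that block in nuc, 61.4% and 80.7% in ut, and 71.4% and 45.7% in tr. In ut and tr the number of peaks and the bases covered thus moved in opposite directions there. In the fourth block CT had 1 peak and KD 139 in nuc, 10 and 226 in ut, and 51 and 44 in tr. The ratio of KD to CT rose along the 4 blocks from 0.649 to 1.61, 3.94 and 22.6 in ut, while in tr it was 1.17, 1.23, 1.40 and 0.863. The blocks differ in width, and the difference per Mb did not follow the ratio: KD minus CT was 60.3, 19.3, 21 and 9.86 peaks per Mb along the 4 blocks in nuc, and -32.2, 17.1, 15.1 and 15.4 in ut. Peaks beyond 68.45 Mb made up 25% of the members in CTnuc and 64.3% in KDnuc, 61.1% in CTut and 88.9% in KDut, and 56.7% in CTtr and 56.0% in KDtr. The tr pair thus had a like share beyond the step in CT and KD. In the nuc lists the part of the numbers that are absent from the files in this difference was not tested.

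**Figure D3:**
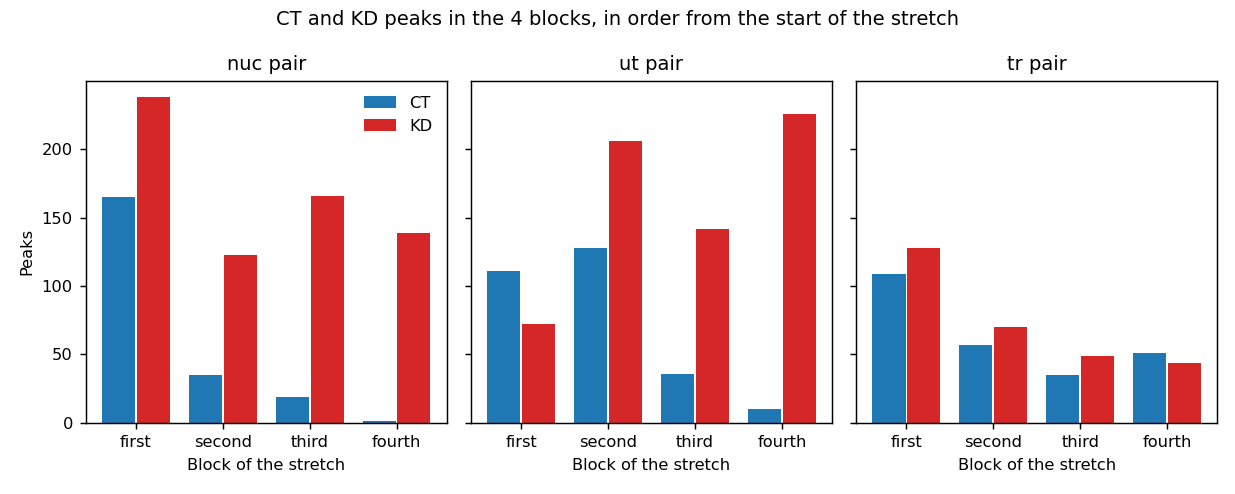
Number of peaks (vertical axis) in the 4 blocks of the stretch in order from 67.24 Mb (horizontal axis), with CT in blue and KD in red, for the pairs nuc, ut and tr. In the fourth block KD stands far above CT in nuc (139 against 1) and ut (226 against 10) and slightly below it in tr (44 against 51).

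Among the 26 whole 1 Mb windows of the stretch, the share of the list was higher in KD in all 3 pairs in 15 and lower in all 3 in 0. Over the 841 windows of the genome with an AbC G4-ChIP peak, 5.71% were higher in all 3 pairs and 7.13% lower. These shares cannot be set directly beside the 15 of 26, because the stretch was chosen for its density: all 26 of its windows held a peak of every pair, as a window must to be called, but only 233 of the 815 others did. Of those 233, 14.2% were higher in KD in all 3 pairs. The 15 windows were spread over the stretch, from that at 69 Mb to that at 92 Mb. In the window from 77 to 78 Mb, CTnuc had 5 peaks and KDnuc 23, CTut 13 and KDut 24, and CTtr 7 and KDtr 15. In that from 78 to 79 Mb the numbers were 1 and 20, 0 and 27, and 3 and 5. Without the nuc pair, whose lists lack numbered peaks, the count was again 15, against 7.13% of the 841 windows. By the share of the bases covered it was also 15, against 6.78%. These percentages likewise include windows that could not be called. By the number of peaks, KD was higher in 26 windows of the stretch in nuc, 25 in ut and 16 in tr. Leaving out nuc could thus change the count little, and the 15 rest mostly on tr. Neighbouring windows were part of one run of peaks, so they are not independent of each other, and most of these counts are small in the tr pair.

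The median fold of the members did not move one way either. It was 4.61 in CTnuc and 4.39 in KDnuc, 3.33 in CTut and 3.41 in KDut, and 3.42 in CTtr and 3.91 in KDtr, a mean difference of 0.119 ± 0.357 (SD over 3 pairs). The lowest fold of the list moved in the same directions, by -0.215 in nuc, 0.111 in ut and 0.436 in tr. Divided by that lowest fold, the medians were 1.06 and 1.07 in nuc, 1.08 and 1.07 in ut, and 1.07 and 1.07 in tr.

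The stretch held 32 protein-coding genes of GENCODE version 44, of which 27 had a peak of at least 1 list and 14 had peaks of 5 lists or more. The share of members that touched such a gene was 10.0% in CTnuc (exact 95% interval 6.37 to 14.7), 18.3% in KDnuc, 18.6% in CTut, 21.8% in KDut (18.7 to 25.2), 15.1% in CTtr, 18.2% in KDtr, 13.8% in G4-ChIP (10.0 to 18.3) and 13.1% in G4 DNA-IPdenat (9.30 to 17.8). The genes cover 19.7% of the stretch. The first block holds none of these genes, so every member there counts as outside them. Beyond 68.45 Mb the genes cover 20.6% of the DNA and the shares were 40% of the 55 members in CTnuc (27.0 to 54.1), 28.5% in KDnuc (24.3 to 33.0), 30.5% in CTut (23.7 to 37.9), 24.6% in KDut (21.1 to 28.3), 26.6% in CTtr (19.5 to 34.6), 32.5% in KDtr (25.4 to 40.3), 19.0% in G4-ChIP (13.9 to 24.9) and 13.9% for G4 DNA-IPdenat (9.91 to 18.9). Of the 6 AbC G4-ChIP lists, all but CTtr had an interval above this 20.6%, CTtr and G4-ChIP had intervals that hold it, and G4 DNA-IPdenat lay below it. The 20.6% is an average from 68.45 to 94.00 Mb, over which the members were not evenly spread. CTnuc had 1 member in the fourth block, CTut 10 and KDut 226. The gene share of the DNA in each block was not computed, so an excess over the DNA where a list's members lie is not shown. DACH1 alone held 9 of the 22 members in genes in CTnuc, 24 of 53 in CTut and 35 of 141 in KDut. In KDnuc it held 21 of 122 and in KDtr 10 of 53. Shares without DACH1 were not computed, so how far the shares depend on this 1 gene was not tested. The intervals cover counting error only, and a long peak can touch a gene that its middle does not. This division was chosen after the values were seen. Within 1 kb of an annotated start of a protein-coding gene lay between 1 member (CTnuc and CTut) and 11 members (KDut) of a list.

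DACH1 (ENSG00000276644.5, chr13:71437966-71867204, minus strand) held the most peaks of any protein-coding gene, 113 over the 9 lists. CTnuc had 9, KDnuc 21, CTut 24, KDut 35, CTtr 11, KDtr 10 and G4-ChIP 3, while both DNA-IPs had 0. Per Mb of gene this was 21.0 in CTnuc, 48.9 in KDnuc, 55.9 in CTut, 81.5 in KDut, 25.6 in CTtr and 23.3 in KDtr, and in the 1 Mb on either side of the gene 6.5, 21.5, 27.0, 43.5, 13.5 and 11.5. All 6 AbC G4-ChIP lists were thus denser inside DACH1 than beside it. The 2 other lists with peaks nearby were not: G4-ChIP had 6.99 per Mb in the gene and 13.5 beside it, and G4 DNA-IPdenat 0 and 11.0. In all, 6 of the 113 peaks touched an exon and the others were intronic. KD had more peaks in DACH1 than CT in nuc and ut and 1 fewer in tr (mean difference 7.33 ± 7.23, SD over 3 pairs).

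KLHL1 (ENSG00000150361.12, chr13:69700594-70108493, minus strand) held 70 peaks and was one of 3 genes with peaks of 8 lists. CTnuc had 1, KDnuc 17, CTut 10, KDut 16, CTtr 3, KDtr 6, G4-ChIP 11 and G4 DNA-IPdenat 6. KD was higher in 3 of 3 pairs (mean difference 8.33 ± 6.81, SD over 3 pairs). Unlike DACH1, KLHL1 did not stand out from its surroundings in most lists: per Mb, CTut had 24.5 in the gene and 26.0 in the 1 Mb on either side, KDut 39.2 and 43.0, KDtr 14.7 and 15.5, and CTtr 7.35 and 10.5. CTnuc had 2.45 and 8. KDnuc (41.7 and 26.0), G4-ChIP (27.0 and 20) and G4 DNA-IPdenat (14.7 and 8.5) were denser inside the gene. The highest fold in KLHL1 was 6.07.

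The glypican genes, which encode heparan sulphate proteoglycans of the cell surface, lie at the far end. GPC5 (chr13:91398621-92873682) had 65 peaks, 15 in KDnuc, 1 in CTut, 18 in KDut, 2 in CTtr, 3 in KDtr, 12 in G4-ChIP, 14 in G4 DNA-IPdenat and 0 in CTnuc. The part of GPC6 inside the stretch had 30, of which 11 were in KDnuc and 13 in KDut, 3 in CTtr, 1 in KDtr, 2 in G4 DNA-IPdenat and 0 in CTnuc, CTut and G4-ChIP. Over both, this was 4.23 peaks per 100 kb of gene in the 9 lists together.

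Of the transcription factor genes DACH1, KLF5, KLF12 and POU4F1, 3 of 4 had peaks, and DACH1 held 113 of their 151. KLF12, a transcriptional repressor of the Kruppel-like family, had 36, with 5 in CTnuc, 11 in KDnuc, 5 in CTut, 8 in KDut, 2 in CTtr, 2 in KDtr, 1 in G4-ChIP and 2 for G4 DNA-IPdenat. KLF5 had 2, both in KDut, and POU4F1, a regulator of sensory neurons, had 0 over its 5.19 kb.

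Genes of the ubiquitin system included KLHL1, counted there because Kelch-like proteins can serve as adaptors of ubiquitin ligases. MYCBP2, a large E3 ubiquitin ligase that acts in axons, had 36, with 1 in CTnuc, 7 in KDnuc, 3 in CTut, 10 in KDut, 3 in CTtr, 8 in KDtr, 2 in G4-ChIP and 2 for G4 DNA-IPdenat, and 20 of them touched an exon. It was also the gene with peaks of the most lists, 5, within 1 kb of an annotated start. The de-ubiquitinase gene UCHL3 had 11 peaks, NDFIP2, an adaptor of NEDD4-type ligases, 9, and the ubiquitin ligase gene OBI1 5. Where genes overlap, a peak counts for each of them.

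The genes of cell division and RNA decay held fewer: PIBF1 had 21, the exonuclease gene DIS3 3, BORA 2 and MZT1 2. In signalling, TBC1D4, a Rab GTPase-activating protein of insulin signalling, had 26 and EDNRB, the endothelin receptor type B, 4, while SPRY2 had 0. Of the SLITRK genes, which encode neuronal transmembrane proteins, SLITRK5 and SLITRK6 had 3 each and SLITRK1 0. RBM26, which encodes an RNA-binding protein, had 22 peaks in its 94.7 kb, with 6 in KDnuc, 5 in KDut, 3 in CTtr, 5 in KDtr, 3 in G4-ChIP and 0 in CTnuc and CTut. The 5 genes without a peak, SPRY2, POU4F1, SLITRK1, KCTD12 and ENSG00000288716, were all short, at most 6.23 kb.

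The lists shared little ground outside the first block. In all, 15.8% of the stretch was covered by at least 1 list, 10.9% by exactly 1 and 0.907% by 5 or more. Every base covered by 6 lists or more (62287 bp) lay in the first block, as did all 14 regions covered by 7 or more. Of those 14, 1 was covered by 8 lists. Beyond the first block the highest number was 4 lists, and the longest such region was chr13:79818877-79819786, with KDnuc, CTut, CTtr and G4 DNA-IPdenat. In KLHL1 the number reached 3 lists (CTut, KDut and G4-ChIP), in DACH1 4 (CTnuc, KDnuc, KDut and G4-ChIP) and in GPC5 2 (KDut and G4-ChIP).

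CT peaks overlapped KD peaks of the same pair more often than the reverse in nuc and ut, where KD had more peaks. Of the CTnuc members, 47.7% shared a base with KDnuc, and of the KDnuc members, 15.6% with CTnuc. The shares were 52.6% and 16.3% in ut and 36.9% and 40.5% in tr. CTnuc members overlapped lists of other pairs even more often, with 66.8% in KDut, 64.1% in CTtr and 60.9% in CTut. These lists cover more of the first block, where 75% of the CTnuc members lay. G4-ChIP members overlapped KDut in 35.2% and CTnuc in 14.5%. G4 DNA-IPdenat covered 2.23% of the stretch and had 16 of its members in the first block: between 1.5% (CTnuc) and 10.5% (KDut) of its members overlapped another list, and between 1.82% (CTnuc) and 10.7% (CTtr) of the members of other lists overlapped it.

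The base composition differed between lists. The median GC content of the members was 36.0% in CTnuc, 37.3% in KDnuc, 34.0% in CTut, 33.7% in KDut, 34.2% in CTtr, 33.1% in KDtr, 33.1% in G4-ChIP and 38.1% for G4 DNA-IPdenat. Tiles of the stretch of the same length as the peaks had medians of 35.3% to 35.5%. The 5 chromatin lists from the MinION thus lay below the stretch and the nuc lists from the Ion Torrent above it. Among the AbC G4-ChIP lists, the sequencer and the addition of plasmid DNA cannot be told apart, since the nuc lists differ from the others in both. G4 DNA-IPdenat was both the highest and the narrowest: its middle 50% spanned 2.18 percentage points, against 5.71 for the tiles, and its median stayed between 38.0% and 38.2% in each of the 4 blocks while the blocks themselves went from 34.8% to 37.9%. KD minus CT in the median GC was 1.22 percentage points in nuc, -0.243 in ut and -1.07 in tr (exact sign-flip permutation p = 1, 3 pairs).

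The triplets followed the GC content. The median number of GGG and CCC triplets per kb was 15.1 in CTnuc, 17.0 in KDnuc, 13.9 in CTut, 14.0 in KDut, 14.0 in CTtr, 12.5 in KDtr, 12.8 in G4-ChIP and 18.0 for G4 DNA-IPdenat. In the tiles it was between 15.2 and 16.1. The members of the MinION chromatin lists were thus poorer in these triplets than the stretch around them.

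Of the 1324 canonical signatures in the stretch, counted on both strands, 143 lay inside a member of at least 1 list and 24 inside members of 3 lists or more. The 143 were 10.8% of all signatures, while 15.8% of the bases of the stretch were covered by at least 1 list. Signatures were thus not inside members more often than bases at large. A signature was found in 1.36% of the CTnuc members (exact 95% interval 0.282 to 3.93), 2.85% of KDnuc (1.73 to 4.42), 10.2% of CTut (6.92 to 14.3), 8.20% of KDut (6.21 to 10.6), 11.5% of CTtr (7.84 to 16.1), 4.47% of KDtr (2.40 to 7.52), 5.86% of G4-ChIP (3.45 to 9.22) and 13.9% of G4 DNA-IPdenat (9.95 to 18.6). In tiles of each list's median length the shares were 3.98%, 3.60%, 9.37%, 7.84%, 7.44%, 6.74%, 8.64% and 7.42%, in the same order. CTtr and G4 DNA-IPdenat had intervals above their tiles and CTnuc an interval below. In G4 DNA-IPdenat an identical signature of 22 bases recurred at several places, such as chr13:77204899-77204920 and chr13:77677941-77677962. Its interval treats such copies as independent, so the share above the tiles is a description. Long peaks have more room for a signature than tiles of the median length, so a share above the tiles says little for lists with some very long peaks, such as CTtr. Signatures A, B and C above all lay in the first block, of which KDut alone covered 80.7%.

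What set G4 DNA-IPdenat apart most was repeated sequence. Of the 31-base words of the stretch, 4.23% occurred again within it on either strand. In G4 DNA-IPdenat, a median of 30.4% of the words of a member were repeated, against 0.633% in tiles, and 88.0% of its members had at least 10% of repeated words, against 10.3% of tiles. The shares in the other lists were all below those of their tiles: 5.00% in CTnuc, 6.31% in KDnuc, 8.42% in CTut, 6.35% in KDut, 7.54% in CTtr, 6.53% in KDtr and 4.48% in G4-ChIP, where tiles had between 9.81% and 12.9%. No repeat annotation was used, and the repeats are not named here.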

How the data were processed

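G4s were immunoprecipitated in 9 libraries, each pooled from 4 replicates, and the authors kept reads with 1 unique alignment to hg38 and called broad peaks over the inputs. Their notes name minimap2 and MACS2, without versions. AbC G4-ChIP and G4 DNA-IPdenat were called with 1 background value for the whole genome (no local lambda) and a wider bandwidth than the other lists, for which the methods do not state the background setting. The fold enrichment, the -log10 p and -log10 q values and the score (10 times the -log10 q value) of each peak were used or read as deposited by the authors. The depth of the libraries was not used and is not known from the files.

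Peaks were assigned to the stretch and windows by their midpoint and to genes (GENCODE version 44) by any shared base. Overlap needed 1 shared base. Sequence was read from hg38, and all peaks of chromosome 13 lay within its length. Shares have exact Clopper-Pearson 95% intervals. KD minus CT in the length and GC content of peaks was given an exact two-sided sign-flip permutation test over the 3 pairs. The same test of the share and the fold is not reported, because both had a part in choosing the stretch. The labels join the lists of a pair by the same preparation (nuc, ut or tr) only. Windows were called where KD exceeded CT in every pair. Steps were placed where 2 constant Poisson rates divide the windows best. Scripts were tested on simulated data. Python 3.11.15 with numpy 2.4.6, pandas 2.3.3 and scipy 1.17.1 were used.

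The stretch, the members and the gene lists were chosen with earlier results of these data known. Genes were named where they are KLHL1, DACH1, 1 of the 10 with the most members, or in 6 groups by function. Regions were named where they have the highest fold of a list, are covered by the most lists, or lie next to the ends of the stretch. KCTD12, ENSG00000288716 and the position 68.45 Mb were added after their values were seen. Some genes and sequences that these rules name are not reported here. Alternatives are given in the closing section.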

Additional observations from a re-analysis of the deposited data

Results flagged for a closer look

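In 5 measures the 3 pairs did not move the same way from CT to KD. Each direction rests on 1 list per line and method, and the difference between pairs was not tested. The median fold fell by 0.220 in the nuc pair and rose by 0.0854 in ut and 0.491 in tr. The covered part of the stretch fell by 1.06 percentage points in the tr pair and rose by 1.83 in nuc and 3.84 in ut. The share of members beyond 68.45 Mb fell by 0.732 percentage points in tr and rose by 39.3 in nuc and 27.8 in ut. The number of peaks in the first block fell by 39 in ut and rose by 73 in nuc and 19 in tr. The covered part of that block instead rose in ut, from 61.4% to 80.7%, and fell in tr, from 71.4% to 45.7%. The number of peaks in the fourth block fell by 7 in tr and rose by 138 in nuc and 216 in ut. The tr pair thus went the other way in 3 of the 5.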

How the results depend on the processing

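With a -log10 q of at least 4, the median over the 8 lists of the share in the stretch went from 9.62% to 2.31%, that of the density over the distal segment (floor of 3 peaks) from 51.5 to 9.09, and that of the share inside protein-coding genes from 16.6% to 9.07%. The lowest density ratio was then 0.498, in CTtr, where the 2 members left were fewer than the floor. By bases covered the density ratio was 103, and the gene share was 36.3% with all annotated genes and 27.5% beyond 68.45 Mb, the latter added after seeing the data. The median boundary between 2 constant densities, 69 Mb, became 72 Mb with windows of 2 Mb and 71 Mb when the distal segment was included, the latter chosen after seeing the data. GC content and triplets kept within 10% of their medians with the stricter limit and over the central 1 kb. The mean of KD minus CT in the share stayed positive under every alternative run and was between 2.16 and 8.36 percentage points with 1 pair left out. Single pairs did not all stay positive: by bases covered, the share was 12.2% in CTtr and 10.6% in KDtr. Without the replicate block the mean difference was the same 6.08 percentage points, and 3 pairs cannot reach 0.05 either way. KD minus CT in the median fold was between -0.0675 and 0.288 with 1 pair left out, negative without the tr pair, and -0.000529 once fold was divided by the lowest fold of the list, an alternative added after seeing the data. Without the block it was the same 0.119. Windows higher in KD in every pair were 15 without the nuc or the ut pair and 25 without tr (added after seeing the data). With 1 library per list, no alternative gives an error over replicates, and the many numbers absent from the nuc lists limit their counts.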
